A study of Mus musculus with 6 samples.

Results

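A set of 9 genes known from injured and regrowing nerve was followed in the degenerating cochlea: Atf3, Hspb1, Gap43, Stmn4, Sprr1a, Vgf, Ecel1, Tnfrsf12a and Flrt3. These 9 were selected on their measured difference between degenerated and control libraries, out of 33676 genes with at least 1 listed transcript, of which 14118 were tested. Their differences are therefore a description: no p is given for them, and where the text says that one of them met a criterion, this states its size against its spread and is no test of it. The libraries came from the modiolus, the bone at the centre of the cochlea that houses the spiral ganglion neurons (SGNs), the primary auditory neurons. All mice were C57BL/6 animals of 8 weeks. The 3 degenerated libraries came from mice given 1 g/kg kanamycin sulfate and 0.4 g/kg furosemide, drugs that ablate the hair cells. Their tissue was taken on day 30. The 3 control libraries came from mice given saline, and the sample labels name no day of collection for them. SGNs are lost in this model after the hair cells that they innervate, and the tissue is whole modiolus, with glia, vessels, bone and marrow beside the neurons. The sources used here do not say how many animals went into a library, so the spread between libraries may be technical in part.

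After an axon is damaged, a neuron turns on a program that is best known from sensory and motor neurons with a cut nerve. Transcription factors of the ATF, Jun and STAT families act early, and their targets include heat shock proteins that protect the cell, proteins of the growth cone and its cytoskeleton, secreted peptides and cell surface receptors. Atf3 is the usual marker of a neuron in this state, and Gap43 and Sprr1a are the usual markers of axon regrowth. Several of these genes also work outside neurons, for example Hspb1 and Tnfrsf12a in stressed or wounded tissue and Sprr1a in the cornified layer of the epidermis.

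The table held 12480876 to 15549319 counts per library over 65535 listed transcripts, and only a part of the transcripts of many genes was listed. Levels are given in CPM (counts scaled to a common library size) after TMM normalization, and fold changes are degenerated against control on the log2 scale with a standard error (SE). A gene passed the criteria at an unadjusted p under 0.01 in the quasi-likelihood test of edgeR if its log2 fold change was also beyond 0.2 in size. These selected 284 genes higher (2.01% of those tested) and 101 genes lower (0.715%) in degenerated libraries. At a Benjamini-Hochberg adjusted p under 0.05, edgeR's quasi-likelihood test and limma-voom each called 0 genes, DESeq2 called 383 and edgeR's exact test 115, while 1367 genes had an unadjusted p under 0.05 in the quasi-likelihood test. Of 11 hair cell markers tested, 8 had a negative log2 fold change and 3 a positive one, and 2 passed the criteria, both lower: Ocm, at 140 to 173 CPM in control and 0.789 to 3.90 CPM in degenerated libraries, and Slc26a5, at 7.78 to 16 and 0.137 to 0.493 CPM. The summed level of 17 SGN markers was 12500 to 16000 CPM in control and 7550 to 11100 CPM in degenerated libraries. Of these 17, 12 had a negative log2 fold change and 5 a positive one. Calb2 and Pvalb, the latter also a skeletal muscle marker, passed the criteria, both lower. Scn1a had the largest positive value, 3.07 (SE 1.18), and did not pass. Blood and marrow markers split the libraries another way, with 6630, 7700 and 5280 CPM in control replicate 1 and degenerated replicates 1 and 2 and 20700 to 53300 CPM in the others, as did the first principal component. Bone markers moved with the groups, with a sum of 797 to 1110 CPM in control and 301 to 517 CPM in degenerated libraries, and 2 of the 6 tested, Bglap and Bglap2, passed the criteria as lower. Control replicate 3 alone held skeletal muscle transcripts such as Ckm, at 92.8 CPM against at most 0.752 CPM elsewhere. The part of these other tissues in the differences of the 9 genes was not tested. In RNA of a whole tissue, fewer cells of a type and less RNA per cell cannot be told apart.

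All 9 genes were higher in every degenerated library than in every control library, a pattern that 10.3% of all tested genes had. Of the 9 genes, 7 passed the criteria, and Flrt3 and Stmn4 did not. Because the genes were chosen for this contrast, nothing is read from either count. The median log2 fold change was 1.51 over the 9 genes and -0.003 over all genes tested. The largest differences belonged to the genes with the lowest control levels, Sprr1a and Ecel1, and the smallest to Stmn4 and Flrt3.

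The sequences upstream of the start are shown for Sprr1a, which had the largest fold change, and for Hspb1, which had the highest level. Promoter windows of RefSeq (GRCm38.p6) were at hand for 6 of the 9 genes, Atf3, Ecel1, Flrt3, Hspb1, Sprr1a and Tnfrsf12a, and the 230 bases that end 21 bases before the RefSeq start were searched. In the Sprr1a window, chr3:92485902-92486131 on the minus strand, capitals mark 2 AP-1 motifs (TGANTCA) and a TATA box (TATAAA). In the Hspb1 window, chr5:135887669-135887898 on the plus strand, capitals mark 2 heat shock elements (GAANNTTC) and a short core of the cAMP response element (TGACG, here on the other strand). Both are written 5′ to 3′ along the gene.
Sprr1a: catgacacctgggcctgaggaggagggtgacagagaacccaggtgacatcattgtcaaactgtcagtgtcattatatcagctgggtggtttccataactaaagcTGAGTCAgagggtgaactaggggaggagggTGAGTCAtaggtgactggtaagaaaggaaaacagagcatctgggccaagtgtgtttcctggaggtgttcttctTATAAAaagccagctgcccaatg
Hspb1: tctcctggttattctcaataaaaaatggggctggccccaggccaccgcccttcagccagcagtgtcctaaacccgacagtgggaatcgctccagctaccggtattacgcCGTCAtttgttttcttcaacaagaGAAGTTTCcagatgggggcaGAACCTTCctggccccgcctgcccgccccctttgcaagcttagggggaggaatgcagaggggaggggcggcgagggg
The AP-1 motif, the element that ATF3 and JUN family dimers can bind, was found in Sprr1a alone of the 6 genes, from 146 to 140 and from 116 to 110 bases upstream of the start. Of 32851 mouse promoter windows of the same length, 6.34% held it. The heat shock element was found in Hspb1 alone, from 117 to 110 and from 97 to 90 bases upstream, and in 6.01% of all windows. The TATA box, searched on the sense strand, began 43 bases upstream in Sprr1a and was in 7.19% of windows. The remaining motifs were searched on both strands. The full cAMP response element (TGACGTCA) was in 0 of the 6 and in 1.28% of all windows, and its short core, which the full element contains, was in Hspb1 and in 15.9%. GC boxes (GGGCGG) were in Atf3, Hspb1 and Tnfrsf12a and in 29.8% of all windows, CCAAT boxes (CCAAT) in Ecel1 and Sprr1a and in 32.2%, and an E-box (CACGTG) in 0 of the 6 and in 5.35%. A match says only that these letters are in the window.

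Atf3 (ENSMUSG00000026628, chr1:191170296-191218039, minus strand) encodes a stress-induced transcription factor of the bZIP family. It had 43.8, 35.2 and 26.4 CPM in control replicates 1, 2 and 3 and 102.2, 90.5 and 100.2 CPM in degenerated replicates 1, 2 and 3. The degenerated libraries lay close together, at 97.6 ± 6.26 CPM (SD, n = 3), and the controls, at 35.1 ± 8.73 CPM (SD, n = 3), were more spread out on the log2 scale. The group means differed 2.78-fold, with a log2 fold change of 1.48 (SE 0.21). Transcript Atf3-201 carried 99.6% of the listed counts in control and 99.5% in degenerated libraries. A second coding transcript with the same coding sequence and a first exon far upstream, Atf3-203, was not among the listed transcripts.

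Hspb1 (ENSMUSG00000004951, chr5:135887919-135889563, plus strand) encodes the small heat shock protein HSP27, a chaperone that holds unfolding proteins and guards actin filaments. Its heat shock elements are those printed above. It had 196.1, 123.6 and 188.5 CPM in control replicates 1, 2 and 3 and 354.6, 355.1 and 386.9 CPM in degenerated replicates 1, 2 and 3. The degenerated libraries again lay within a narrow range and control replicate 2 was the lowest of the 6. The means were 169.4 ± 39.9 and 365.5 ± 18.5 CPM (SD, n = 3 each), a 2.16-fold difference and a log2 fold change of 1.11 (SE 0.19). Per transcript length it was the most abundant of the 9 genes, at 345.7 ± 98.8 TPM (a length-scaled abundance) in control and 797.4 ± 48.5 TPM in degenerated libraries (SD, n = 3 each).

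Gap43 (ENSMUSG00000047261, chr16:42248442-42340651, minus strand) encodes the growth-associated protein of the growth cone membrane. It had 7.61, 4.74 and 5.74 CPM in control replicates 1, 2 and 3 and 32.6, 14.4 and 27.9 CPM in degenerated replicates 1, 2 and 3. Degenerated replicate 2 was lower than the other degenerated libraries, and its level was still 1.89 times that of the highest control. The means were 6.03 ± 1.46 and 25.0 ± 9.46 CPM (SD, n = 3 each), with a log2 fold change of 2.05 (SE 0.39). All of these counts belonged to Gap43-201, 1 of 2 annotated transcripts.

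Sprr1a (ENSMUSG00000050359, chr3:92483952-92485895, minus strand) encodes a small proline-rich protein that is a component of the cornified envelope in skin and is made by axotomized sensory neurons. Its raw counts were 30, 2 and 24 in control replicates 1, 2 and 3 and 307, 324 and 349 in degenerated replicates 1, 2 and 3. The gene was low in controls, with control replicate 2 alone under the floor of 3 counts, and at a steady level in degenerated libraries. The levels were 1.22 ± 0.961 and 23.8 ± 3.38 CPM (SD, n = 3 each), a 19.5-fold difference and a log2 fold change of 4.27 (SE 0.85). The lowest degenerated library was 10.6 times the highest control, the widest gap among the 9 genes. A count of 2 in control replicate 2 fixes the control mean only loosely, so the size of this fold is uncertain.

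Because Sprr1a is also an epithelial gene, epithelial markers were read beside it. The sum over the 13 listed of 17 epithelium and keratinocyte markers was 683 to 797 CPM in control and 904 to 1180 CPM in degenerated libraries. Of the 9 that were tested, 2 passed the criteria, both higher: Dsp, a desmosome protein, with a log2 fold change of 0.93 (SE 0.18), and Cdh1, epithelial cadherin, with 0.48 (SE 0.11). Adjusted over all genes with edgeR, their p values were 0.274 and 0.320. Among the markers that define keratinocytes, Krt15 had 0 counts in all 6 libraries, Ivl and Krt6a reached at most 1.18 and 1.47 CPM, and Krt14 had 1.13 to 6.25 CPM in control and 0.631 to 5.0 CPM in degenerated libraries. Lor had 1.08 to 1.79 and 1.5 to 2.29 CPM, and Krt10 had 8.63 to 13.2 and 10.1 to 12.6 CPM. The epithelial markers Krt18 and Epcam had log2 fold changes of 0.88 (SE 0.26) and 0.57 (SE 0.22) and did not pass the criteria. Krt1, a keratinocyte marker, went the other way. It had 0.766 to 0.993 CPM in control and 0.316 to 0.493 CPM in degenerated libraries, a log2 fold change of -1.08 (SE 0.44) that did not pass. Of the 9 tested markers, 7 had a positive and 2 a negative log2 fold change. An unadjusted p under 0.05 with edgeR was found for 5 of the 9, Krt1 among them. The part of epithelial cells in the Sprr1a difference was not tested.

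Stmn4 (ENSMUSG00000022044, chr14:66344296-66361680, plus strand) encodes a stathmin of neurons, a protein that binds tubulin and regulates microtubules. It had 68.4, 48.1 and 54.5 CPM in control replicates 1, 2 and 3 and 110.9, 92.5 and 74.9 CPM in degenerated replicates 1, 2 and 3. Degenerated replicate 3 and control replicate 1 were nearly level, with a ratio of 1.10. The means were 57.0 ± 10.4 and 92.8 ± 18.0 CPM (SD, n = 3 each), and the log2 fold change of 0.70 (SE 0.21) was the smallest of the 9. Of 9 annotated transcripts, 3 were listed, all of them coding. They differ in an exon of 81 bases, chr14:66356269-66356349 (GRCm38, GENCODE M21, plus strand), which is entirely coding and is part of Stmn4-203 and Stmn4-204 but not of Stmn4-202. It is printed because it sets Stmn4-202 apart from the other two in the protein.
Stmn4 exon: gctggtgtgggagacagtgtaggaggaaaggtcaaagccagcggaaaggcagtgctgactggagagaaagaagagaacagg
Transcripts with this exon took 92.3%, 87.5% and 96.0% of the listed Stmn4 counts in control replicates 1, 2 and 3 and 91.7% in each degenerated library. The most abundant, Stmn4-203, had a log2 fold change of 0.71 (SE 0.25) and Stmn4-202 one of 0.73 (SE 0.48). Stmn4-204, which also holds an exon of 53 bases that Stmn4-203 lacks, had 70, 58 and 123 counts in control and 90, 83 and 68 counts in degenerated replicates 1, 2 and 3, and its groups overlapped, with a log2 fold change of 0.03 (SE 0.37).

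Vgf (ENSMUSG00000037428, chr5:137026392-137033351, plus strand) encodes a neurotrophin-inducible precursor of secreted neuropeptides. It had 8.14, 7.71 and 3.89 CPM in control replicates 1, 2 and 3 and 17.8, 23.5 and 36.4 CPM in degenerated replicates 1, 2 and 3. Both groups were spread out, with control replicate 3 lowest and degenerated replicate 3 highest. The means were 6.58 ± 2.34 and 25.9 ± 9.53 CPM (SD, n = 3 each), with a log2 fold change of 1.97 (SE 0.42), and without degenerated replicate 3 the gene no longer passed the criteria. Vgf-201 carried most counts. Vgf-202, which has the same coding sequence and an additional exon before it, had 50 counts in degenerated replicate 1 and 0 in the other 5 libraries, and Vgf-204 had 18 counts in degenerated replicate 2 and at most 1 elsewhere.

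Ecel1 (ENSMUSG00000026247, chr1:87147655-87156521, minus strand) encodes a membrane protease of the neprilysin family, also called DINE, that injured neurons make. Its raw counts were 6, 59 and 14 in control replicates 1, 2 and 3 and 275, 209 and 497 in degenerated replicates 1, 2 and 3. Control replicate 2, the lowest or middle control for the other genes, was the highest here, and degenerated replicate 3 held about as many counts as the other degenerated libraries together. The levels were 1.82 ± 2.05 and 24.3 ± 13.1 CPM (SD, n = 3 each), a 13.3-fold difference with a log2 fold change of 3.73 (SE 0.97). Ecel1 passed the criteria with all libraries and without control replicate 2, where the log2 fold change was 5.21, and failed them when any other library was left out. Of its 3 coding transcripts, which share the same coding length, only Ecel1-203 was listed, so these counts cover a part of the gene.

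Tnfrsf12a (ENSMUSG00000023905, chr17:23675445-23677468, minus strand) encodes Fn14, the receptor for the cytokine TWEAK. It had 53.2, 60.1 and 66.0 CPM in control replicates 1, 2 and 3 and 144.6, 162.8 and 202.4 CPM in degenerated replicates 1, 2 and 3. The controls lay close together and every degenerated library was at least 2.19 times the highest control. The means were 59.8 ± 6.42 and 170.0 ± 29.6 CPM (SD, n = 3 each), with a log2 fold change of 1.51 (SE 0.17), the smallest standard error of the 9. Tnfsf12, the gene of its ligand TWEAK, had 47.7 to 51.0 CPM in control and 29.6 to 44.1 CPM in degenerated libraries, a log2 fold change of -0.41 (SE 0.19) that did not pass the criteria (edgeR, adjusted p = 0.565).

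Flrt3 (ENSMUSG00000051379, chr2:140650914-140671469, minus strand) encodes a transmembrane protein with leucine-rich repeats and a fibronectin domain that binds latrophilins and Unc5 receptors and takes part in axon guidance. It had 18.3, 15.6 and 18.6 CPM in control replicates 1, 2 and 3 and 33.7, 23.2 and 36.2 CPM in degenerated replicates 1, 2 and 3. Degenerated replicate 2 stood only 1.25 times above the highest control. The means were 17.5 ± 1.65 and 31.0 ± 6.86 CPM (SD, n = 3 each), with a log2 fold change of 0.82 (SE 0.24). The gene lies on the opposite strand within Macrod2, and 0 bases of its listed exons overlapped an exon of that gene. Of these receptors, Unc5a, Unc5b, Unc5d, Adgrl1, Adgrl2 and Adgrl3 had log2 fold changes of -1.46 (SE 1.28), -0.19, -0.35, 0.23, 0.22 and 0.06, none of which passed the criteria. The direction of Unc5a, of Adgrl1 and of Adgrl3 turned when single libraries were left out.

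**Figure D1:**
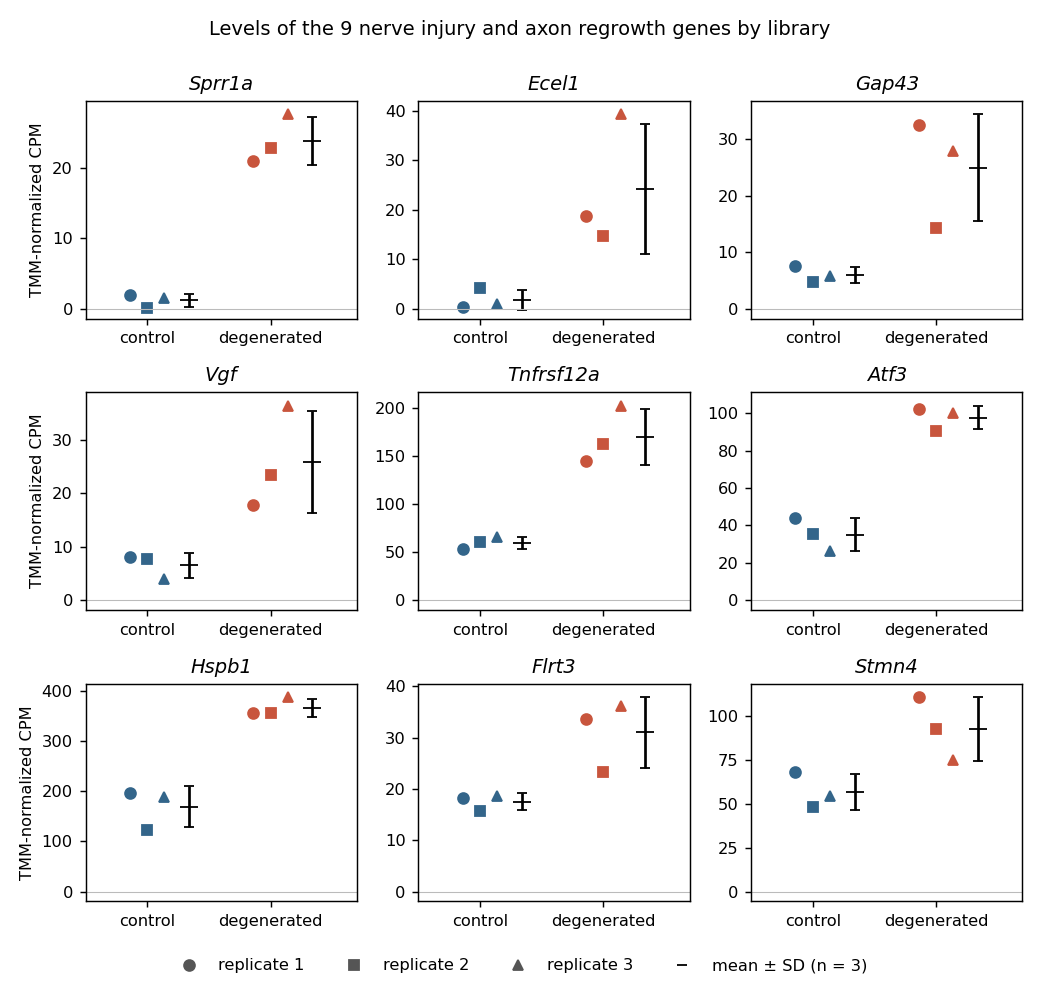
TMM-normalized CPM of the 9 genes (vertical axis, linear, a separate scale for each gene) in the 3 control and 3 degenerated libraries; symbols mark the replicate number, and the bar gives the mean ± SD (n = 3). In each panel the 3 degenerated libraries sit above the 3 controls, with the widest gap for Sprr1a, whose lowest degenerated library is 10.6 times the highest control, and the narrowest for Stmn4, where this ratio is 1.10.

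The 9 genes differed in how steady they were among the degenerated libraries. The SD of log2 CPM between degenerated libraries was 0.072 for Hspb1, 0.094 for Atf3 and 0.199 for Sprr1a, and 0.518, 0.623 and 0.732 for Vgf, Gap43 and Ecel1. Among controls it was largest for Sprr1a and Ecel1, at 1.60 and 1.54, whose control counts were low. Control replicate 2 was the lowest control for 5 of the 9 genes and the highest for Ecel1 only, and degenerated replicate 3 was the highest degenerated library for 6 of the 9. Leaving out each library in turn gave log2 fold changes of 1.3 to 1.66 for Atf3, 0.92 to 1.22 for Hspb1, 1.80 to 2.32 for Gap43, 3.75 to 4.80 for Sprr1a and 1.36 to 1.60 for Tnfrsf12a. The ranges were 0.54 to 0.84 for Stmn4, 0.70 to 0.99 for Flrt3, 1.64 to 2.17 for Vgf and 3.20 to 5.21 for Ecel1. With the blood and marrow level of each library as a covariate, an alternative chosen after the data were seen, 7 of the 9 passed as before, and the log2 fold changes lay between 0.50 for Stmn4 and 5.29 for Ecel1. The share of all genes that passed in this fit is not given, so nothing is read from that count.

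**Figure D2:**
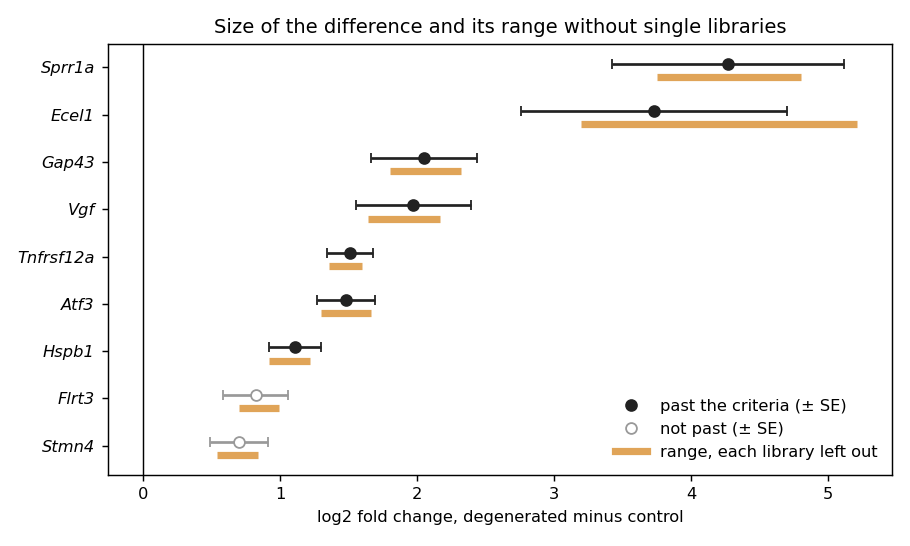
Log2 fold change, degenerated minus control, of each of the 9 genes with its SE (points and whiskers; filled, past the criteria, open, not past) and the range of values when each of the 6 libraries is left out (bars). The lowest value is 0.54 for Stmn4, and the widest range is that of Ecel1, from 3.20 to 5.21. That every range stays above 0 follows from each degenerated library being above each control for these genes.

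On the scale of TPM, which divides by transcript length, the order in control libraries was Hspb1 (345.7), Tnfrsf12a (110.7), Stmn4 (81.5), Atf3 (32.9), Flrt3 (8.10), Gap43 (7.85), Vgf (4.73), Sprr1a (2.85) and Ecel1 (1.10). Tnfrsf12a and Stmn4 did not overlap between control libraries, at 105.1 to 121.0 and 64.3 to 104.2 TPM, and neither did Stmn4 and Atf3 or Atf3 and Flrt3. From Flrt3 down each gene overlapped the next, with 6.78 to 9.04 TPM for Flrt3, 5.74 to 10.5 for Gap43, 2.74 to 6.25 for Vgf, 0.302 to 4.83 for Sprr1a and 0.269 to 2.48 for Ecel1, so that these neighbours could not be ordered. In degenerated libraries Sprr1a, at 58.2 ± 8.82 TPM (SD, n = 3), was above Gap43 (34.3 ± 12), Vgf (20.8 ± 7.08), Ecel1 (17.4 ± 8.65) and Flrt3 (15.7 ± 3.26). The last 3 overlapped each other. Gap43, at 20.7 to 43.5 TPM, overlapped Vgf (14.7 to 28.6) and Ecel1 (11.8 to 27.3) but not Flrt3 (12.2 to 18.6).

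Transcript by transcript, 18 of the 35 annotated transcripts of the 9 genes were listed and 12 had enough counts for the fit. Of these 12, 11 did not overlap between the groups, all with the degenerated libraries higher, where 10.5% of the 26065 transcripts tested did so. The exception was Stmn4-204. The criteria were passed by 6 of the 12, where 1.14% of all tested transcripts passed in the higher direction; this too follows from how the genes were chosen. They were Atf3-201, Flrt3-201, Gap43-201, Hspb1-201, Sprr1a-201 and Tnfrsf12a-201. The 2 listed coding transcripts of Flrt3 have the same coding sequence and differ in the second exon, of 752 bases in Flrt3-201 and 199 in Flrt3-202, and in where the transcript starts and ends. Flrt3-202 had 277, 217 and 288 counts in control and 456, 303 and 358 in degenerated replicates 1, 2 and 3, a log2 fold change of 0.59 (SE 0.26). Flrt3-201 had 0, 4 and 4 counts in control and 37, 27 and 100 in degenerated replicates 1, 2 and 3, a log2 fold change of 4.42 (SE 1.13). Its control counts were too low for the low-count filter, which Flrt3-201 met only through the degenerated libraries, so nothing is read from its passing. Its share of the Flrt3 counts was 1.01% in control and 12.8% in degenerated libraries, and 21.8% in degenerated replicate 3. How counts were divided between transcripts that share exons was the work of the authors' software, and its error is unknown here.

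**Figure D3:**
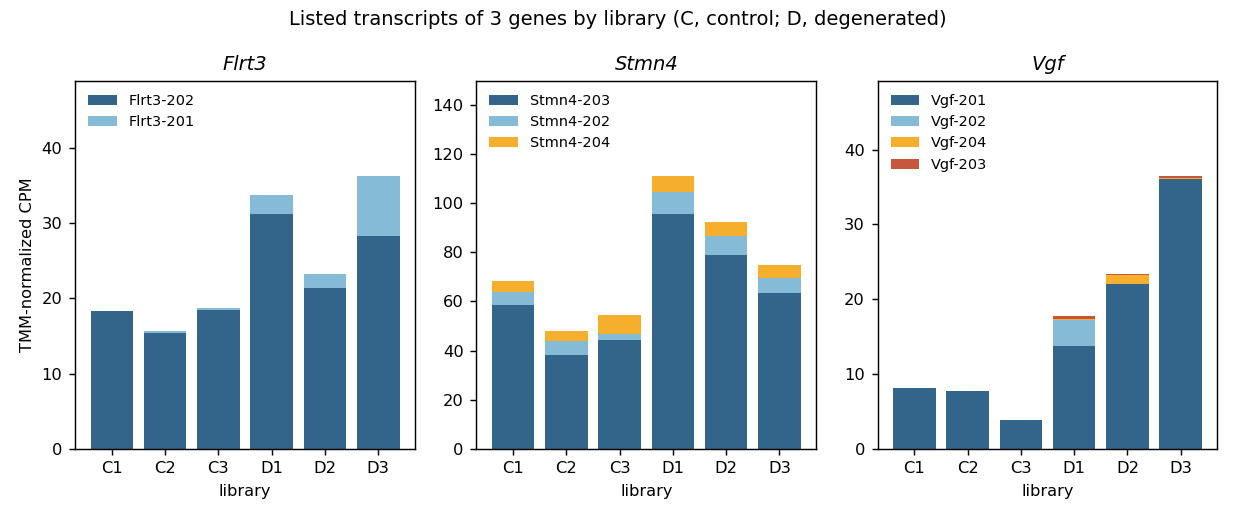
TMM-normalized CPM (vertical axis, linear from 0) of the listed transcripts of Flrt3, Stmn4 and Vgf, stacked for each control (C1 to C3) and degenerated (D1 to D3) library. Flrt3-201 is nearly absent from controls and takes 7.51%, 8.18% and 21.8% of Flrt3 in D1, D2 and D3; Stmn4-203 dominates Stmn4 in all 6 libraries; Vgf-202 is seen in D1 only.

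The wider biology of the 9 genes was read from 6 lists with 185 genes, of which 148 had a listed transcript and 124 were tested. The lists were drawn up with earlier results of these data known. Of the 124 genes, 7 (5.65%) passed the criteria as higher and 2 (1.61%) as lower, against 2.01% and 0.715% of all genes, and the median log2 fold change was 0.16 against -0.003. With edgeR's quasi-likelihood test, 0 genes of the lists had an adjusted p under 0.05 and 20 an unadjusted p under 0.05. All adjusted p values below come from that test over the 14118 genes.

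Among 19 injury transcription factors tested, 1 rose and 0 fell, with a median log2 fold change of 0.32. This was Stat3, which carries signals of the LIF and IL-6 family of cytokines to the nucleus, with 198.0 to 218.0 CPM in control and 332.0 to 362.0 CPM in degenerated libraries, a log2 fold change of 0.73 (SE 0.09, adjusted p = 0.138). Partners that form AP-1 dimers with ATF3 were measured in part, since Jun had no listed transcript here. Jund had a log2 fold change of 0.21 and Junb of -0.02, and neither passed. The growth cone and cytoskeleton, the biology of Gap43 and Stmn4, had 17 tested genes with a median log2 fold change of 0.02. Of these, 0 passed the criteria in either direction, where 2.01% of all genes passed as higher and 0.715% as lower. Nothing is read from a count of 0 in so short a list. Tubb3, the neuronal tubulin, had a log2 fold change of -0.04 (SE 0.13).

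Of 14 secreted peptides and growth factors tested, 2 rose and 2 fell. Lif, a cytokine that signals through STAT3, had 2.42 to 4.74 CPM in control and 9.10 to 16.8 CPM in degenerated libraries, a log2 fold change of 1.94 (SE 0.42, adjusted p = 0.307), and it passed in 3 of the 6 fits that left out a library. Il11, of the same cytokine family, had 0.829 to 1.13 and 2.94 to 3.55 CPM, a log2 fold change of 1.83 (SE 0.33, adjusted p = 0.240). The 2 that fell were chromogranins, proteins of the neuropeptide granule in which VGF is also packed. Chga went from 309.0 to 442.0 CPM in control to between 157.0 and 223.0 CPM in degenerated libraries, a log2 fold change of -0.88 (SE 0.20, adjusted p = 0.307), and Chgb from 444.0 to 565.0 CPM to between 246.0 and 324.0 CPM, one of -0.91 (SE 0.16, adjusted p = 0.240). Vgf was higher in the same libraries.

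Among 33 receptors and adhesion molecules tested, 3 passed the criteria as higher and 0 as lower, with a median of 0.21. Their log2 fold changes were positive for 19 and negative for 14. Itgb1, the integrin beta chain, had 4.17 to 4.63 CPM in control and 35.8 to 84.8 CPM in degenerated libraries, a log2 fold change of 3.72 (SE 0.37, adjusted p = 0.0779), over 2 of its 4 annotated transcripts, so that this is a part of the gene. Itga7, an integrin alpha chain for laminin, had 30.6 to 38.5 and 63.4 to 77.3 CPM, a log2 fold change of 0.98 (SE 0.17, adjusted p = 0.238). Gfra1, the receptor for GDNF, had a log2 fold change of 1.54 (SE 0.37, adjusted p = 0.327) and passed in 1 of the 6 fits that left out a library. C3ar1, a receptor to which a VGF peptide binds, had one of 0.39 (SE 0.36) and did not pass. Receptors of the LIF and IL-6 family of cytokines did not pass either. Lifr, Cntfr and Il6ra had -0.27 (SE 0.09), -0.26 (SE 0.09) and -0.33 (SE 0.37). Il6st had -0.63 (SE 1.88) and Osmr 1.61 (SE 0.69).

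Of 25 stress and survival genes tested, 1 rose and 0 fell, with a median of 0.16. It was Chac1, a target of the ATF4 arm of the stress response that breaks down glutathione, with 5.94 to 6.75 and 13.4 to 18.5 CPM and a log2 fold change of 1.3 (SE 0.25, adjusted p = 0.274). Atf4 itself had a log2 fold change of 0.04 (SE 0.16).

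Of 16 tested paralogs of the 9 genes, 0 passed the criteria in either direction in edgeR's quasi-likelihood test, 2 had an unadjusted p under 0.05, and the median was -0.03. Over all genes 2.01% passed as higher and 0.715% as lower, so nothing is read from a count of 0 among 16. The small heat shock proteins Hspb2, Hspb6, Hspb7, Hspb8 and Cryab had log2 fold changes of -0.01, 0.22, -0.44, 0.51 and 0.47 beside 1.11 for Hspb1. The stathmins Stmn1 and Stmn2 had -0.38 and -0.28 beside 0.70 for Stmn4. Flrt2 had 0.24 beside 0.82 for Flrt3, and the relatives of Atf3, Jdp2, Batf and Batf3, had -0.04, -0.47 and 0.38. In the protease family of Ecel1, Mme (neprilysin) had the largest value, 1.03 (SE 0.32, adjusted p = 0.409), which passed in DESeq2 only, and Ece1, Ece2 and Phex, which is also a bone marker, had 0.43, -1.39 and -0.40. Around Sprr1a, Sprr2a1 was tested and had -0.06 (SE 1.16). Its control level rested on 8.61 CPM in control replicate 3, and without that library its log2 fold change was 2.49 and passed the criteria. In the same family, Sprr1b, Sprr2b, Sprr2f, Sprr2g, Sprr2i and Sprr4 had 0 counts in all 6 libraries, each at or under the floor of 3 counts. Differences between a gene and its paralogs were not tested, and the 9 genes were chosen on their difference in this contrast. The directions of Jdp2, Batf, Batf3, Hspb2, Cryab and Sprr2a1 turned under some alternatives.

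**Figure D4:**
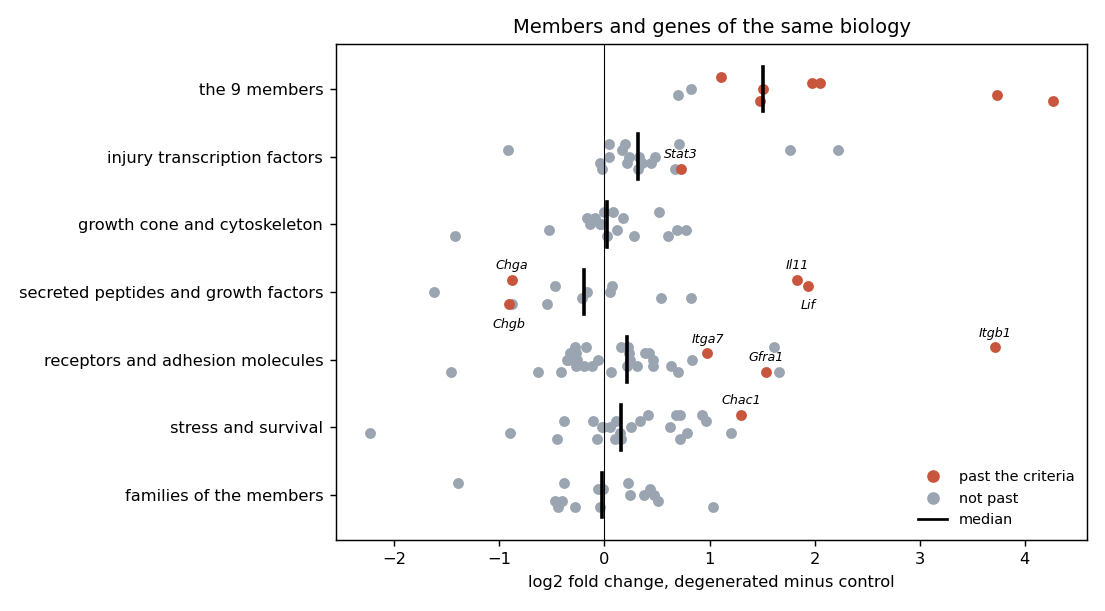
Log2 fold change, degenerated minus control, of the 9 genes and of the tested genes of 6 lists; each point is a gene, red points passed the criteria, and the black line is the median of the row. The median is 1.51 for the 9 genes, which were chosen on this contrast, and -0.19 to 0.32 for the lists; the named red points are the 7 genes that rose and the 2 that fell.

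The genes whose log2 CPM followed the mean profile of the 9 most closely across the 6 libraries were Fads2, Epb41l1, Tmem87a, Fblim1 and Cep41, with Pearson r of 0.995 to 0.992, and 110 of 14109 other genes had r above 0.95. With 6 libraries in groups that differ, such values arise for many genes, and they are given as a description. Single genes had as nearest gene Tmem171 for Atf3, Gm25262 for Hspb1, C1qb for Gap43, Tfap2a for Sprr1a, Faf2 for Stmn4, Tor1aip2 for Vgf, Lypla1 for Ecel1, H6pd for Tnfrsf12a and C1qc for Flrt3, with r from 0.989 to 0.998. C1qb and C1qc, complement chains made by macrophages, had 171.0 to 203.0 and 151.0 to 173.0 CPM in control and 247.0 to 324.0 and 209.0 to 287.0 CPM in degenerated libraries. The sum over 8 listed macrophage markers was 890 to 2600 CPM in control and 1650 to 3010 CPM in degenerated libraries. Lyz2 alone had 386 to 2160 and 1080 to 2280 CPM of it. Of the 7 macrophage markers tested, 4 had a positive and 3 a negative log2 fold change. C1qb and C1qc passed the criteria, both higher. The negative values were -1.54 (SE 1.11) for Cd68, -0.26 (SE 0.31) for Cd163 and -0.01 (SE 0.66) for Lyz2, and none of them passed. Aif1, also on that list, was not tested and had 0.0707 to 16.2 CPM in control and at most 0.137 CPM in degenerated libraries. Of 10 tested markers of Schwann and satellite cells, which are glia, 6 had a positive and 4 a negative log2 fold change. Cdh19 alone passed the criteria, as higher, at 0.81 (SE 0.14). The sum over this list was 5950 to 9910 CPM in control and 5070 to 8210 CPM in degenerated libraries. The part of macrophages and of glia in the differences of Gap43 and Flrt3 was not tested.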

How the data were processed

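RNA of 6 modiolus libraries, 3 control and 3 degenerated by the labels, was compared. Per the study's methods the authors aligned reads with Hisat2 and estimated expression with StringTie, whereas the submitters' processing notes name Bowtie 0.12.2 and the builds mm8 and mm10. The deposited table holds raw counts per Ensembl transcript, as whole numbers without normalization. Of 65535 transcripts, 65272 matched GENCODE M21 (GRCm38), and the other 263, with 0.125% of counts, were left out. Counts of listed transcripts were summed per gene, and TPM was computed from counts and transcript lengths.

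Differences were fitted over 14118 genes, and over 26065 transcripts, in R 4.3.3 by edgeR 4.0.16, with its default low-count filter, TMM scaling and the robust quasi-likelihood F test, on all 6 libraries without covariates and with Benjamini-Hochberg adjustment over all features tested. A fold change divided by the root of its F statistic gave its SE. Log2 CPM used a prior count of 2. Alternatives were limma-voom (limma 3.58.1), DESeq2 1.42.0, the exact test of edgeR, RLE and upper-quartile scaling, other low-count filters, a replicate block and fits without single libraries; a blood and marrow covariate was added after the data were seen. The steps were tested on simulated data.

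The 9 genes and all lists were chosen with earlier results of these data known. Named are the 9 genes with their listed transcripts, list genes past the criteria, tested binding partners and paralogs, and the genes most like each profile. Ocm, Slc26a5, Unc5a, Jund, Junb, Tubb3, Atf4 and the cell markers were named after their values were seen. The same holds for Lifr, Cntfr, Il6ra, Il6st and Osmr.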

Additional observations from a re-analysis of the deposited data

How the results depend on the processing

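All 9 genes stayed higher in degenerated libraries under each of the 15 alternatives, in 133 of 135 values within 1 SD between replicates. The exceptions were Ecel1 without control replicate 2 (5.21) and with the blood and marrow covariate (5.29). The genes were chosen on this contrast, with every degenerated library above every control, so leaving out a library could hardly turn a direction. Most of these fits can also shift a value only a little against that SD. Both counts are a description and no support. Between 6 and 7 of the 9 passed the criteria when a library was left out, 9 in DESeq2 and 5 by the most abundant transcript alone. DESeq2 also gave more of all genes an unadjusted p under 0.05, 1609 against 1367 in the quasi-likelihood test. The share of all genes passing the criteria is not given for the alternatives, so counts of passing genes are not compared between fits. The replicate numbers gave same-numbered libraries correlations of 0.143, -0.0856 and 0.0657, and differently numbered ones -0.258 to 0.219. The labels name no pairing, and so few libraries cannot show whether samples were paired. With the replicate block 5 of the 9 genes, 4 of the 12 transcripts, 9 partner genes higher and 2 lower passed. Leaving out single libraries gave 3 to 6 transcripts (3 without control replicate 3 and without degenerated replicate 3, where 6 passed with all libraries), 5 to 8 partner genes higher and 1 to 3 lower (1 without degenerated replicate 3, where Chga was at -0.74). The cause was not tested.

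Partner genes that passed kept their direction under all alternatives, as genes without overlap between the groups nearly must. Some that did not pass turned: Adgrl1 to -0.21 with the blood and marrow covariate and between -0.17 and 0.51 without single libraries, Unc5a between -2.03 and 0.29, Adgrl3 between -0.27 and 0.20, Batf3 between -0.08 and 0.95, Cryab between -0.01 and 0.75, and Batf to 0.33 with the covariate. Jdp2 was at 0.03 in limma-voom, 0.01 with the replicate block, 0.05 with the covariate and between -0.43 and 0.27 without single libraries, and Hspb2 at 0.01, 0.01, 0.24 and between -0.21 and 0.10. Sprr2a1 was at 1.01 in limma-voom, 1.21 with the block and between -0.58 and 2.49 without single libraries, passing the criteria at 2.49 without control replicate 3. Counts cover the listed transcripts only, and counts under about 10 per library, as for Sprr1a and Ecel1 in some controls, limit the size of their folds.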
